A study of Mus musculus with 25 samples.

Results

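The 9 genes described here, S100a8, S100a9, Ngp, Ltf, Camp, Chil3, Elane, Mpo and Retnlg, encode products that neutrophils store or secrete. They were taken as a named set by gene symbol from the 43693 genes of the sorted-cell count table, and all 9 were found by identifier in the tissue and culture tables. RNA was sequenced from mouse spinal cord after a contusion injury, either from whole tissue at the lesion epicentre or from sorted cells of the astrocyte lineage, and from cultured astrocytes. The stated subject of the study is how astrocytes respond to cord injury.

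The tissue libraries came from C57BL/6 mice 3 months (3 libraries) or 1 month (3 libraries) after a moderate contusion of 60 kdyn at thoracic level T9, and no uninjured tissue was analysed here. Sorted cells came from GFAP-Cre-/+:R26-tdT-/+ mice, in which a Gfap-driven recombinase switches on the red protein tdTomato in cells that make, or once made, Gfap, so that the mark is inherited by their descendants. Their groups were sham (laminectomy at T9 without contusion, taken at 7 days, 3 libraries) and 7 days (3), 1 month (3) and 3 months (2, replicates 1 and 3) after the same contusion. All sorted groups, sham included, carried both transgenes and went through enzymatic digestion, myelin removal and tdTomato sorting. Sham cells were taken at 7 days alone, so time after surgery and injury cannot be told apart for the later groups. Each tissue or sorted library pooled 3 mice, and the labels give no animal ages. The cultures were C57BL/6 brain astrocytes from pups of postnatal day 4 to 7, given a Zeb2os knockdown, Zeb2 knockdown or control lentivirus and selected with puromycin at 1 µg/ml, with 2 libraries in each of 4 groups.

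Neutrophils are short-lived white blood cells made in the bone marrow, and they are among the first blood cells to enter an injured spinal cord. Their granules are filled in sequence as the cells mature. Primary (azurophil) granule proteins such as myeloperoxidase and neutrophil elastase are transcribed mostly in promyelocytes, secondary (specific) granule proteins such as lactoferrin and cathelicidin mostly in myelocytes, and the cytosolic pair S100A8 and S100A9 through to the mature cell. In mice the transcription factors PU.1 and C/EBPα act on primary granule genes, and C/EBPε on secondary granule genes.

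The set holds neighbours as well as scattered genes. In GRCm38, Camp (chr9:109847379-109849617, minus strand), Ngp (chr9:110419747-110423012, plus strand) and Ltf (chr9:111019271-111042767, plus strand) lie on the same stretch of chromosome 9. S100a8 (chr3:90668978-90670035, plus strand) and S100a9 (chr3:90692632-90695721, minus strand) are neighbours on chromosome 3, which also carries Chil3 (chr3:106147554-106167564, minus strand). Elane lies at chr10:79886247-79888215, Mpo at chr11:87793581-87804413 and Retnlg at chr16:48872621-48874496, all 3 on the plus strand. All of these values are exonic read counts per gene, and the strand setting of the counting is not given in the sources used here. Mpo shares 512 exonic bases with the antisense gene Gm11505, which had 940, 49 and 95 counts in 3-month tissue against 5, 26 and 21 counts in 1-month tissue, so the Mpo counts are uncertain to that extent. Chil4, a near-identical copy of Chil3, had at most 1 count in any tissue or sorted library.

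The promoters of 4 genes are shown, 2 of primary and 2 of secondary granule genes, because these classes are described separately and parted in some of the sorted libraries. RefSeq promoter windows (GRCm38.p6) were found for all 9 genes, and the motifs were searched in the 250 bases before each RefSeq start. The printed stretches leave out the bases of that window from the GENCODE gene start onward, and with them 1 of the 3 C/EBP matches of Ngp. Capitals mark matches on either strand to a PU.1 motif (GAGGAAGT) in Elane and Mpo, and to a C/EBP motif (TTNNGNAA) in Ltf and Ngp. No matches to the 2 motifs overlapped in the printed windows.
Elane, chr10:79886062-79886246, plus strand: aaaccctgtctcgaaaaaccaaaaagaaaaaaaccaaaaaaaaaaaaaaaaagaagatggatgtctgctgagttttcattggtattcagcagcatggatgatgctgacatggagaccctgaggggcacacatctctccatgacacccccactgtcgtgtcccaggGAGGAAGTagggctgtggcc
Mpo, chr11:87793534-87793580, plus strand: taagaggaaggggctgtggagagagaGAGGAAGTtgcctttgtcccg
Ltf, chr9:111019042-111019270, plus strand: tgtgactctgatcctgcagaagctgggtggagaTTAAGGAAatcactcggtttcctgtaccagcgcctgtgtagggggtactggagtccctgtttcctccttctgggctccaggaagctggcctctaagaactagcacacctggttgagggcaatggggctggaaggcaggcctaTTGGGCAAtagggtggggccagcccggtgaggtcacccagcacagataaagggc
Ngp, chr9:110419558-110419746, plus strand: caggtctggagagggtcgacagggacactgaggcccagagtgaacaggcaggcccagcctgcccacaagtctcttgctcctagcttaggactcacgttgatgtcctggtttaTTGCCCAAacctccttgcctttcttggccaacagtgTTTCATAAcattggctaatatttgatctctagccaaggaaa
The PU.1 letters were found in 3 of the 9 windows (Elane, Mpo and S100a8), against 2.44% of 32851 promoters of the same length. The C/EBP letters were found in 6 of 9 windows (Ngp, Ltf, Chil3, S100a8, S100a9 and Retnlg) and in 36.8% of all promoters. Among the granule genes, the PU.1 letters were found in primary genes alone and the C/EBP letters in secondary genes alone. Camp, a secondary granule gene, had no match to either motif, and S100a8, which is in neither class, had both. A link between motif and granule class was not tested. A match describes the letters and is not a binding site.

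Library depth was 15.4 to 27.1 M counts in tissue, 15.7 to 50.2 M counts in sorted cells and 29.0 to 158 M counts in cultures. Levels are given as counts-per-million (CPM) of the TMM-scaled library size. Differences are log2 changes with standard errors from edgeR's quasi-likelihood test, with p-values adjusted by Benjamini-Hochberg over all genes tested and called below 0.05. Common biological variation, as edgeR's coefficient, was 0.137 in tissue and 0.63 in sorted cells. Of 10 astrocyte markers all were detected in every sorted library, with a summed level of 4162 to 5765 CPM in sham, 2452 to 2924 CPM at 7 days, 1447 to 1529 CPM at 1 month and 1249 to 1410 CPM at 3 months. In the same libraries 5 markers of oligodendrocyte precursors summed to 4408 to 7210 CPM, above the astrocyte sum in each of the 11 libraries, sham included. Microglial markers, 10 in all, summed to 458 to 1743 CPM in sham and 2632 to 3348 CPM at 7 days. Their sum was 2363 to 3823 CPM at 1 month and 5468 to 7442 CPM at 3 months. In every 1-month and 3-month library it lay above the astrocyte sum.

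For these genes 3 libraries stood apart. Tissue replicate 1 at 3 months held 3017 CPM of the 9 genes together, against 329 and 312 CPM in the other 3-month libraries and 51.4, 98.9 and 88.5 CPM in 1-month tissue. Sorted sham replicate 2 held 75.0 CPM, the highest sum among the 11 sorted libraries. Sorted sham replicate 3 held 24.2 CPM from Elane and Mpo alone, with 0 counts of each of the other 7 genes. Calls, bounds and ratios that rest on these libraries are given with and without them.

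In injured cord tissue all 9 genes were higher at 3 months than at 1 month in every library, and the groups did not overlap for any of them. Of the 9, 8 were called higher (edgeR, adjusted p of 0.0327 to 0.0469) and Mpo was not (adjusted p = 0.0555). DESeq2 gave an adjusted p for Elane and Mpo alone and called both (0.00109 and 0.00717). Among the 19652 genes tested, 6.69% were called higher and 17.6% had 3-month libraries all above the 1-month ones. The median log2 change of the 9 genes was 4.00, and that of all genes tested was -0.00254. In whole tissue, a change in the number of cells of a type and a change in RNA per cell cannot be told apart.

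The primary granule genes had the lowest levels per length of exon. Elane, which encodes the serine protease neutrophil elastase, stood at 33.4, 2.26 and 3.63 CPM in the 3 libraries of 3-month tissue, against 0.265, 0.748 and 0.385 CPM in 1-month tissue. Its 1-month values rest on 4, 13 and 7 counts. Its log2 change of 4.78 ± 1.26 (SE, n = 3 each) was the largest of the set, with an edgeR adjusted p of 0.0440. Mpo, which encodes the hypochlorite-forming enzyme myeloperoxidase, stood at 104, 6.64 and 11.6 CPM at 3 months, against 0.795, 3.28 and 3.08 CPM at 1 month. Mpo also had the widest spread among 1-month libraries, 4.13 times between the highest and the lowest, and its log2 change of 4.06 ± 1.16 was not called.

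The secondary granule genes were higher in the same libraries. Ltf, which encodes the iron-binding protein lactoferrin, stood at 468, 50.2 and 42.3 CPM in 3-month tissue, against 6.56, 12.7 and 12.7 CPM in 1-month tissue, and rose by a log2 change of 4.12 ± 1.02 (edgeR adjusted p = 0.0361). Camp, which encodes the antimicrobial cathelicidin peptide, stood at 175, 16.01 and 18.5 CPM at 3 months, against 2.78, 5.23 and 5.17 CPM at 1 month, a log2 change of 3.97 ± 1.04 (edgeR adjusted p = 0.0435). In both genes the lowest 3-month library was at least 3.06 times the highest 1-month library. Ngp, a cathelicidin-related neutrophilic granule protein, stood at 564, 54.0 and 55.5 CPM at 3 months, against 9.07, 16.9 and 15.9 CPM at 1 month, a log2 change of 4.00 ± 1.00 (edgeR adjusted p = 0.0380). Chil3 encodes a chitinase-like protein made by myeloid precursors and neutrophils, and also by some macrophages. It stood at 154, 16.7 and 17.1 CPM at 3 months, against 2.78, 4.49 and 3.96 CPM at 1 month, a log2 change of 4.06 ± 1.00 (edgeR adjusted p = 0.0365).

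S100a8 and S100a9 encode the calcium-binding subunits of calprotectin, the most abundant cytosolic protein of neutrophils, which also chelates zinc and manganese. S100a9 stood at 878, 103 and 89.3 CPM in 3-month tissue, against 17.1, 31.1 and 27.6 CPM in 1-month tissue, and rose by a log2 change of 3.81 ± 0.93 (edgeR adjusted p = 0.0353). S100a8 stood at 559, 70.1 and 65.8 CPM at 3 months, against 9.80, 21.9 and 16.8 CPM at 1 month, a log2 change of 3.84 ± 0.92 (edgeR adjusted p = 0.0327). Retnlg, a secreted resistin-like protein of neutrophils and bone marrow, stood at 81.2, 9.70 and 8.09 CPM at 3 months, against 2.19, 2.70 and 2.91 CPM at 1 month, a log2 change of 3.66 ± 0.98 (edgeR adjusted p = 0.0469). Retnlg was the tightest of the 9 at 1 month, with a spread of 1.33 times.

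**Figure D1:**
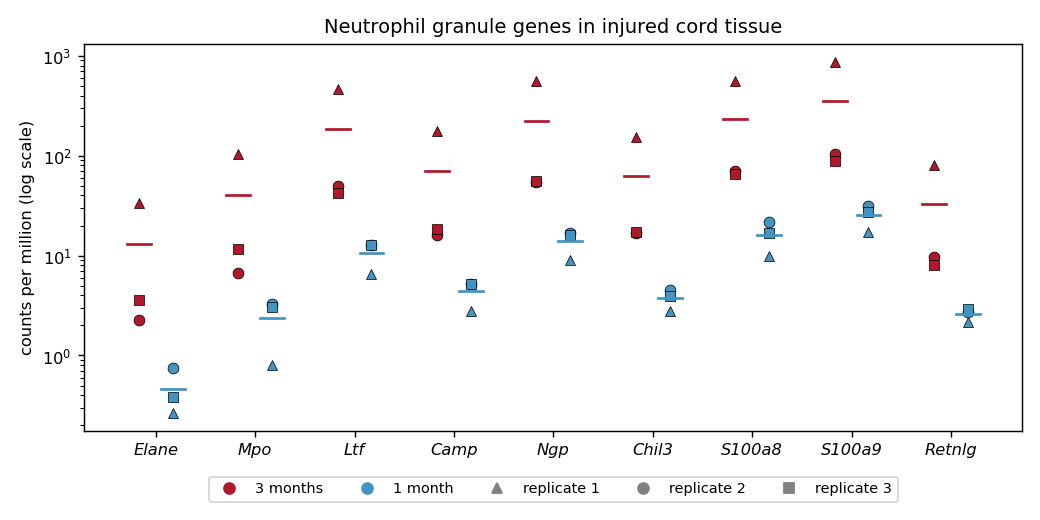
CPM (log axis) of the 9 genes in whole tissue, 3-month libraries in red and 1-month libraries in blue, with marker shapes for replicates and bars for the group means. Replicate 1 at 3 months lies far above replicates 2 and 3, and these in turn lie above all 1-month libraries, as with S100a9 at 103 and 89.3 CPM against at most 31.1 CPM.

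The size of these changes depended on replicate 1 at 3 months, and their direction did not. Relative to the 1-month mean it was 31.2 (Retnlg) to 71.8 times (Elane) as high, whereas replicate 2 was 2.79 (Mpo) to 4.86 times (Elane) and replicate 3 was 3.11 (Retnlg) to 7.79 times (Elane) as high. Within the 3-month group it exceeded the mean of the other 2 libraries by 8.22 (S100a8) to 11.4 times (Mpo). Without it, all 9 genes were called higher, with log2 changes of 1.77 to 2.62 (edgeR adjusted p of 0.000547 to 0.0129). Without any single 1-month library none of the 9 was called (adjusted p of 0.101 to 0.183), with the log2 changes at 3.57 to 5.29 and every unadjusted p under 0.05; without replicate 3 at 3 months, 5 were called.

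**Figure D2:**
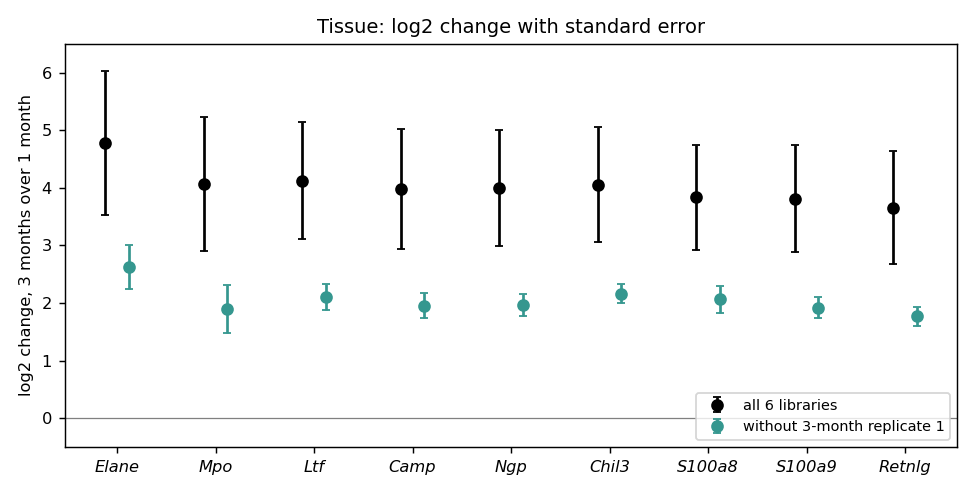
Log2 change of each gene, 3 months over 1 month, with its standard error, in all 6 tissue libraries (black) and without replicate 1 at 3 months (green). Leaving that library out lowers the 9 changes to 1.77 to 2.62 and narrows their errors, and all stay above 0.

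The shares of 7 genes in the summed level of the set varied by 1.11 (S100a9) to 1.55 times (Retnlg) between the lowest and the highest tissue library, and those of Elane and Mpo by 2.72 and 2.53 times. Per kilobase of exon, S100a9 made up 45.1 to 49.9% of the summed level of the set over the 6 libraries, S100a8 21.4 to 25.3% and Ngp 10.8 to 12.8%. Camp followed with 5.16 to 6.43%, Retnlg with 3.60 to 5.59%, Ltf with 2.88 to 3.76% and Chil3 with 2.21 to 2.76%. Elane and Mpo were lowest, at 0.358 to 0.972% and 0.352 to 0.890%. The ranges of Camp and Retnlg, of Retnlg and Ltf, and of Elane and Mpo overlapped between libraries. Within libraries Camp stood above Retnlg in 5 of 6, Retnlg above Ltf in 6 of 6 and Elane above Mpo in 4 of 6. The log2 ratio of the primary granule genes Elane and Mpo to S100a8 and S100a9, in counts plus 1, was -3.39, -4.28 and -3.35 in 3-month tissue and -4.59, -3.70 and -3.66 in 1-month tissue, with means of -3.67 and -3.98. The difference of 0.31 was within the spread between libraries (two-sided exact permutation test, p = 0.5, adjusted p = 0.6 over 4 comparisons, smallest p reachable 0.1).

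**Figure D3:**
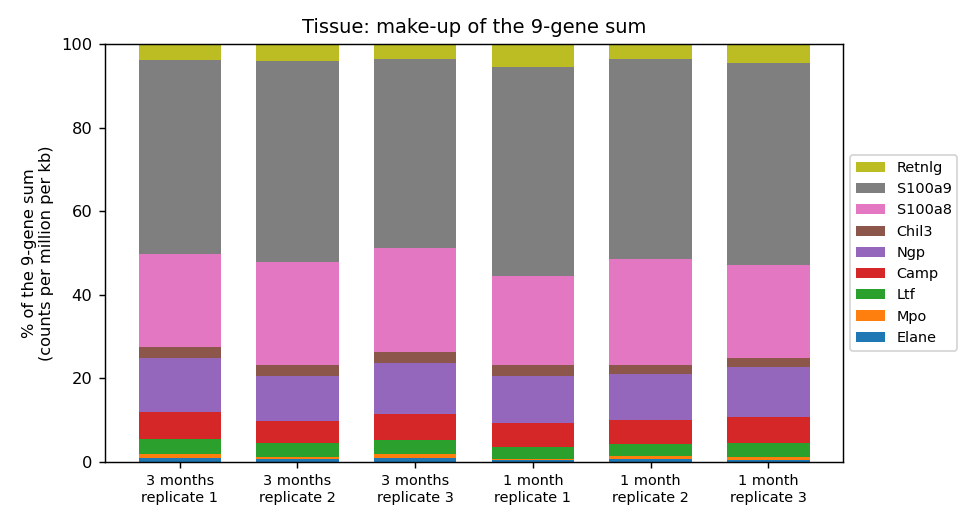
Share of each gene, in percent, in the summed level of the 9 genes per kilobase of exon, for the 3-month (left) and 1-month (right) tissue libraries. The bands of S100a9, S100a8 and Ngp keep a similar height in all 6 libraries, with S100a9 between 45.1 and 49.9%, although the sum itself spans 51.4 to 3017 CPM.

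Other granule genes moved less evenly. Of 17 tested, 14 had a positive log2 change, with a median of 1.87 over the list. Of the 17, 3 were called higher and 1 lower, against 6.69% of all genes called higher and 8.01% lower. Cd177, a surface protein held in secondary granules, rose by a log2 change of 4.20 ± 1.05 (edgeR adjusted p = 0.0375), with 73.4, 9.01 and 6.80 CPM in 3-month tissue against 1.19, 1.78 and 1.81 CPM in 1-month tissue. Fcnb, a pattern-recognition ficolin, and the membrane-bound protease Mmp25 also rose (log2 changes 4.12 and 3.81). Lyz2, lysozyme, which macrophages and microglia make as well, fell by a log2 change of 1.15. Lcn2, a secondary granule protein that reactive astrocytes also make, did not follow the set, with 206, 36.8 and 55.4 CPM at 3 months against 154, 175 and 131 CPM at 1 month; it is named here after its values were seen.

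Surface and lineage markers of neutrophils pointed the same way in most genes, and few were called. Of 17 tested from a list of 18, 16 had a positive log2 change, with a median of 2.93, and 2 were called higher. These were Ms4a3, a marker of granulocyte and monocyte progenitors (log2 change 4.54 ± 1.18, edgeR adjusted p = 0.0426), and Mrgpra2b, a receptor of mouse neutrophils (4.23 ± 1.10, edgeR adjusted p = 0.0420). Ly6g, the surface marker by which mouse neutrophils are usually sorted, had 11.7, 1.06 and 1.21 CPM at 3 months against 0.0662, 0.403 and 0.495 CPM at 1 month and was not called (edgeR adjusted p = 0.0738). Csf3r, the receptor for the granulocyte growth factor, which microglia express too, was the exception, with 83.4, 41.5 and 41.7 CPM at 3 months against 84.6, 103 and 78.5 CPM at 1 month. Csf3r made up most of the list's sum in every tissue library other than replicate 1 at 3 months, and the sum was 2.58, 0.729 and 0.707 times the 1-month mean in the 3-month libraries. Ly6g and Csf3r are named here after their values were seen.

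Markers of other blood lineages were high in the same 3-month library. The 7 eosinophil, basophil and mast cell markers summed to 46.8, 5.84 and 9.67 CPM in 3-month tissue against 1.52, 2.42 and 2.25 CPM in 1-month tissue, and 3 of 5 tested rose (Mcpt8, Prg2 and Prss34, log2 changes 4.70, 4.48 and 2.88). The sum of platelet markers was 4.51, 1.24 and 2.22 times its 1-month mean, with 2 of 6 tested called higher. B cell markers, at 2.92, 1.45 and 1.69 times, had 4 of 8 called higher, and among erythroid markers, at 2.13, 0.830 and 1.87 times, 5 of 11 were called higher. T and NK cell markers stood at 1.99, 0.686 and 1.11 times with none of 6 called, at an unadjusted p under 0.05 included. Stem and progenitor markers stood at 0.985, 0.911 and 0.894 times the 1-month mean, with 1 of 7 called higher and 1 lower. Microglial markers went the other way, at 0.461, 0.390 and 0.426 times the 1-month mean, with 8 of 10 called lower. Monocyte and macrophage markers were mixed. Their sum, most of it from Csf1r and Cd68, stood at 0.672, 0.440 and 0.474 times the 1-month mean, with 3 of 11 called lower, none called higher and 4 with a positive change. Ly6c2, a surface marker of inflammatory monocytes, had 44.1, 3.94 and 4.30 CPM at 3 months against 1.59, 2.76 and 2.14 CPM at 1 month, and was not called (log2 change 3.00 ± 1.01, edgeR adjusted p = 0.0877). Plac8 had 23.9, 4.78 and 5.13 CPM at 3 months against 2.32, 4.14 and 2.91 CPM at 1 month, and was not called either (log2 change 1.84 ± 0.66, edgeR adjusted p = 0.102). For both genes, named after their values were seen, every 3-month library lay above every 1-month library, and Ccr2 and F13a1 were also highest in replicate 1 at 3 months (27.7 and 37.2 CPM). The part that cells of other blood lineages, or blood or marrow carried with the tissue, play in the rise of the granule genes was not tested.

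**Figure D4:**
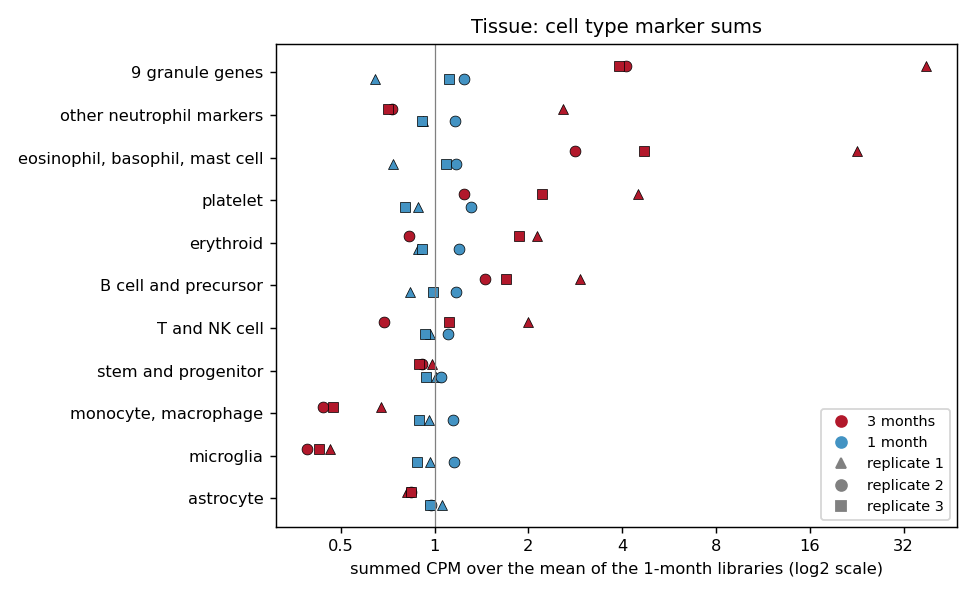
Summed CPM of each marker list in each tissue library, divided by the mean of the 1-month libraries (log2 axis), with 3-month libraries in red and 1-month libraries in blue. In replicate 1 at 3 months the 9 granule genes stand at 37.9 times and the eosinophil, basophil and mast cell list at 22.7 times the 1-month mean, whereas microglial markers lie between 0.390 and 0.461 times in all 3-month libraries.

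Of the factors, attractants and receptors around these genes, none was called higher in tissue by edgeR, with Cebpe, Myb, Ltb4r1 and Cd36 higher at an unadjusted p under 0.05. Of 8 regulators of granulocyte formation tested, 3 fell, and the median log2 change was -0.56. Cebpd fell by a log2 change of 1.51, Cebpa by 1.15 and Cebpb by 1.11, all 3 being C/EBP factors with functions outside granulocytes. Cebpe, which encodes C/EBPε, had 8.17, 0.730 and 1.04 CPM in 3-month tissue against 0.331, 0.230 and 0.165 CPM in 1-month tissue and was not called (log2 change 3.77 ± 1.16, edgeR adjusted p = 0.0687). Myb, a factor of blood progenitors, had 8.02, 3.39 and 3.71 CPM at 3 months against 2.25, 2.13 and 1.92 CPM at 1 month and was not called (log2 change 1.26 ± 0.35, edgeR adjusted p = 0.0521). Gfi1, a repressor needed for neutrophil formation, was under the filter on low counts, at 3.29, 0.401 and 0.792 CPM at 3 months against 0.132, 0.230 and 0.220 CPM at 1 month. In these 3 genes, named after their values were seen, all 3-month libraries lay above all 1-month libraries. Of 12 neutrophil attractants and adhesion molecules, 3 fell (median log2 change -0.54). These were the chemokine Cxcl1 (log2 change -1.66), the integrin chain Itgam (-0.79) and the endothelial adhesion molecule Icam1 (-0.57). Of 6 receptors for S100A8 and S100A9, the co-receptors Cd14 and Ly96 fell (log2 changes -0.90 and -0.73), with a median of -0.41 over the 6.

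Among the non-member genes whose log2 CPM followed the mean of the 9 most closely over the 6 tissue libraries were Dapk1, Celf6, Cd177 and Wfdc21 (Pearson r of 0.994 to 0.996). These 6 points share 1 library that is far from the rest, so the values are a description. Wfdc21, a gene of the neutrophil marker list, had 19.6, 2.30 and 1.92 CPM at 3 months against 0.265, 0.518 and 0.714 CPM at 1 month. Dapk1, a kinase expressed in neurons, had 75.6, 60.5 and 61.3 CPM at 3 months against 53.0, 54.7 and 54.5 CPM at 1 month, a far smaller range.

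In the sorted cells the same 9 genes were scarce and scattered between libraries. Their summed level was 5.05, 75.0 and 24.2 CPM in sham, 17.4, 3.61 and 9.77 CPM at 7 days, 7.56, 0.279 and 0 CPM at 1 month, and 16.2 and 40.8 CPM at 3 months. The number of genes with any count was 8, 9 and 2 in sham, 7, 4 and 7 at 7 days, 7, 1 and 0 at 1 month, and 7 and 6 at 3 months. A gene with 0 counts could still be present at up to 3 counts, which is 0.0598 to 0.182 CPM depending on the library and covers counting error only.

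Elane was counted in 2 sorted libraries, both sham. It had 0, 0.805 and 14.0 CPM (0, 24 and 231 counts) in sham and 0 counts in all 8 libraries after injury. Against the pooled sham counts, with 3 counts over the group as the floor, it was at least 120-fold lower at 7 days. On the same reckoning it was at least 133-fold lower at 1 month and 62-fold lower at 3 months. These bounds cover counting error and not the spread between libraries, and sham replicate 1 also had 0 counts. Without sham replicate 3, which held 231 of the 255 sham counts, these bounds were 14.3, 15.8 and 7.39. Mpo had 0.281, 0.201 and 10.2 CPM (9, 6 and 168 counts) in sham, 0 counts in all libraries at 7 days and 1 month, and 0.691 and 0 CPM at 3 months. By the same kind of bound, Mpo was at least 85.8-fold lower at 7 days and 95.1-fold lower at 1 month than in sham. Without sham replicate 3, which held 168 of its 183 sham counts, the Mpo bounds were 8.91 and 9.88. In sham replicate 3 the antisense gene Gm11505 had 100 counts. In 3-month replicate 1, which held all 25 Mpo counts found after injury, Gm11505 had 25 counts. Prtn3, the proteinase of the same granules, had 1.75, 1.95 and 4.18 CPM in the sham libraries (56, 58 and 69 counts). Of 16 genes tested on the list of other granule genes, which holds Prtn3, none was called lower than sham at any time after injury. Ctsg, cathepsin G, had 0 counts in every sorted library. Prtn3 and Ctsg are named after their values were seen.

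The secondary granule genes were highest in sham replicate 2 or in a 3-month library, and Chil3 at 7 days. Ltf had 0.842, 5.54 and 0 CPM in sham, 1.67, 0 and 0.0476 CPM at 7 days, 2.78, 0 and 0 CPM at 1 month, and 3.60 and 11.6 CPM at 3 months. Ngp had 0.624, 8.36 and 0 CPM in sham, 2.02, 0.274 and 0.357 CPM at 7 days, 1.36, 0 and 0 CPM at 1 month, and 6.22 and 10.6 CPM at 3 months. For Ltf and Ngp the sham and 3-month values overlapped. Camp had 0.187, 6.27 and 0 CPM in sham, 0.504, 0.192 and 0.334 CPM at 7 days, 0.160, 0 and 0 CPM at 1 month, and 0.636 and 0.238 CPM at 3 months. Chil3 had 0.561, 2.75 and 0 CPM in sham, 2.05, 2.52 and 3.17 CPM at 7 days, 0.107, 0 and 0 CPM at 1 month, and 0.138 and 0 CPM at 3 months. Chil3 was the most even of the 9 at 7 days, at 2.58 ± 0.56 CPM (SD, n = 3).

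S100a8 had 1.53, 23.4 and 0 CPM in sham, 4.66, 0.630 and 2.33 CPM at 7 days, 0.267, 0.279 and 0 CPM at 1 month, and 0.940 and 6.47 CPM at 3 months. S100a9 had 0.998, 26.1 and 0 CPM in sham, 5.67, 0 and 2.29 CPM at 7 days, 2.25, 0 and 0 CPM at 1 month, and 3.98 and 9.28 CPM at 3 months. Within the sham group alone the calprotectin genes spanned 0 to 23.4 CPM and 0 to 26.1 CPM. Retnlg had 0.0312, 1.51 and 0 CPM in sham, 0.787, 0 and 1.24 CPM at 7 days, 0.641, 0 and 0 CPM at 1 month, and 0 and 2.62 CPM at 3 months. Ordered by mean level per kilobase of exon, S100a9 came first at each of the 4 times, but the SD exceeded the mean for all 9 genes in sham and for 6 of the 7 genes counted at 1 month, so neighbours in that order do not differ beyond their spread there.

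**Figure D5:**
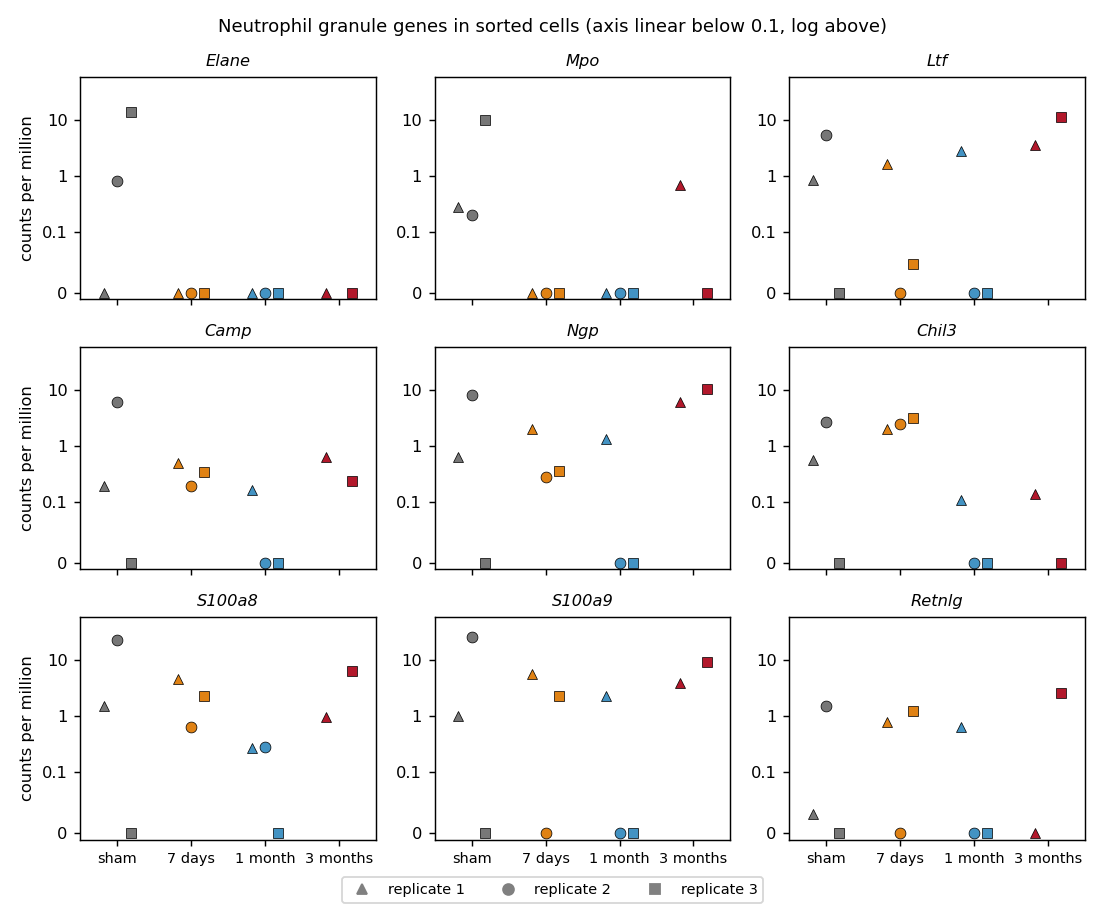
CPM of each of the 9 genes in the sorted libraries by time, with marker shapes for replicates and an axis that is linear below 0.1 and logarithmic above. Elane is at 0 in all 8 libraries after injury, sham replicate 2 is the highest sham library for 7 of the 9 genes, and Chil3 lies at 2.05 to 3.17 CPM in all 7-day libraries.

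At 7 days against sham, 2 of the 9 genes were called, both lower, against 8.41% of 24286 genes called lower. They were Elane (edgeR adjusted p = 0.0264) and Mpo (edgeR adjusted p = 0.0263). Without sham replicate 3 both fell under the filter on low counts and were not tested, and none of the other 7 was called. Without any single 7-day library neither was called (edgeR adjusted p of 0.0694 to 0.0867), and DESeq2 did not call Elane (adjusted p = 0.0520) and gave Mpo no adjusted p. The median log2 change of the 9 was -1.77 with Elane and Mpo fitted or at their bounds, and that of all genes was -0.06. For Chil3, which was counted in every 7-day library, the log2 change was 1.21 ± 1.56 (edgeR adjusted p = 0.680), and its sham and 7-day values overlapped.

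At 1 month against sham, 3 of 9 genes were called lower, against 5.83% of all genes. They were Elane (edgeR adjusted p = 0.0355), Mpo (edgeR adjusted p = 0.0353) and S100a8, with 0.182 ± 0.158 CPM at 1 month and 8.33 ± 13.1 CPM in sham (SD, n = 3 each). The S100a8 log2 change was -5.46 ± 1.65 (edgeR adjusted p = 0.0409), but the groups overlapped because sham replicate 3 had 0 counts. Without any single 1-month library none of these 3 was called (edgeR adjusted p of 0.0964 to 0.146). DESeq2 called S100a8 (adjusted p = 0.0274) and Chil3 (0.0190), did not call Elane (0.0666) and gave Mpo no adjusted p. Without sham replicate 2 the S100a8 change was -2.09 and was not called (edgeR adjusted p = 0.438). Elane was then under the filter on low counts, and of the 8 genes tested Mpo alone was called (edgeR adjusted p = 0.0234). Without sham replicate 3 both Elane and Mpo fell under the filter and were not tested. Of the 7 genes then tested 3 were called lower, S100a8 among them (edgeR adjusted p = 0.00469). S100a8 was lower in every 1-month library than in any 7-day library, as were 17% of all genes. That difference was not called (log2 change -3.74 ± 1.54, edgeR adjusted p = 0.255). The median log2 change of the 9 against sham was -4.86 at 1 month and -1.18 at 3 months. That of all genes was -0.0181 and -0.103. Both medians of the 9 rest on a sham group that includes replicates 2 and 3.

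At 3 months against sham none of the 9 was called by edgeR, nor by DESeq2 among the 7 to which it gave an adjusted p, and 1 (Elane) had an unadjusted edgeR p under 0.05; of all genes, 11.7% were called and 25.1% had such a p. Between 1 month and 7 days edgeR called none either, with 2 at an unadjusted p under 0.05 (Chil3 and S100a8); of all genes, 2.61% were called and 15.2% had such a p. Chil3 was lower in every 1-month library than in any 7-day library, as were 17% of all genes (log2 change -6.07 ± 1.96, edgeR adjusted p = 0.129). With those 2 groups fitted alone its adjusted p was 0.00322, and without the filter on low counts it was 0.0243. DESeq2 gave an adjusted p to 4 of the 9 genes here and called none of them; Chil3 was not among the 4, and its unadjusted DESeq2 p was 0.000189. Between 3 months and 1 month none was called by edgeR, nor by DESeq2 among the 7 to which it gave an adjusted p. An unadjusted p under 0.05 was found for 3 (S100a8, Mpo and Ngp), and the Mpo counts came from 3-month replicate 1 alone. Of all genes, 0.387% were called and 11.8% had such a p. All 8 genes with counts in either group had a positive change, and for Camp, Ltf, Ngp, S100a8 and S100a9 both 3-month libraries lay above every 1-month library, as did those of 15.9% of all genes. The largest differences among these 5 were those of S100a8 (log2 change 4.28 ± 1.64, edgeR adjusted p = 0.320) and Ngp (4.21 ± 1.85, edgeR adjusted p = 0.395).

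The ratio of primary to cytosolic genes ranged more widely over the 11 sorted libraries than over the 6 tissue libraries, a difference that was not tested. The log2 ratio of Elane and Mpo to S100a8 and S100a9, in counts plus 1, was -3.04, -5.57 and 8.64 in sham, -8.36, -4.59 and -7.61 at 7 days, -6.57, -3.91 and 0 at 1 month, and -2.78 and -8.38 at 3 months. Elane and Mpo together had 0 counts in 7 of the 11 libraries, so the values there reflect the S100a8 and S100a9 counts alone. The value of 0 at 1 month stands for a library with no counts of any of these genes. At 7 days the difference from sham was -6.86, and the libraries of both groups overlapped (two-sided exact permutation test, p = 0.2, adjusted p = 0.6). At 1 month it was -3.50 and at 3 months -5.59 (exact p = 0.6 each). The smallest p reachable was 0.1 in each of these comparisons, so the test could call no difference of any size. With 0.5 or 5 added to the counts in place of 1, the 7-day difference was -8.15 or -4.06. Without sham replicate 3 the differences were -2.55, 0.81 and -1.27 at the 3 times.

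Of the 18 neutrophil markers, between 4 (sham replicate 3) and 13 (7-day replicate 1) had any count in a sorted library. Ly6g had 1 count in sham replicate 1 and 0 counts in the other 10 libraries. Ms4a3 and Stfa2l1 had 0 counts in all 11, and these genes and Ly6g are named after their values were seen. The summed level of the 18 neutrophil markers was 53.3 to 92.5 CPM in sham, 67.4 to 85.3 CPM at 7 days, 97.4 to 140.5 CPM at 1 month and 219 to 248 CPM at 3 months, most of it from Csf3r and Hdc. Of 11 tested, 3 were called higher than sham at each of the 3 times (Csf3r, Clec4d and Trem1) and 1 lower (Hdc, histidine decarboxylase). Csf3r had 169 and 217 CPM at 3 months against 27.4, 10.2 and 2.48 CPM in sham (log2 change 3.83 ± 0.56, edgeR adjusted p = 0.000304). Clec4d and Trem1, receptors of myeloid cells, had 0 counts in all sham libraries and at most 16.4 and 3.34 CPM after injury. Monocyte and macrophage markers summed to 139 to 641 CPM in sham, 909 to 1238 CPM at 7 days, 810 to 1186 CPM at 1 month and 1840 to 2392 CPM at 3 months. The part of any of these cells in the counts of the 9 genes was not tested.

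Among the genes around the set, several rose in the sorted cells. Of 16 other granule genes tested, 4 rose at 7 days and at 1 month and 5 at 3 months, namely Lyz2, Cybb, the catalytic chain of the phagocyte oxidase, its partner Cyba, the granule proteoglycan Srgn and, at 3 months, the protease inhibitor Slpi. The percentages of all genes called higher than sham were 9.87% at 7 days, 6.23% at 1 month and 6.78% at 3 months. Lyz2 had 1899, 3568 and 2848 CPM at 7 days against 41.2, 8.49 and 59.7 CPM in sham (log2 change 6.25 ± 0.55, edgeR adjusted p = 2.4e-06). Macrophages and microglia also express Lyz2, Cybb, Cyba and Srgn. The granule genes Fcnb and Ctsg, named after their values were seen, had at most 3 counts in any library. Of 15 attractants and adhesion molecules tested, 8 rose at each time, including the cytokine Il1b and the chemokine Cxcl2 (log2 changes 4.44 and 3.20 at 7 days). Of 6 receptors for S100A8 and S100A9, Cd14, Tlr4 and the scavenger receptor Cd36 rose at 7 days (log2 changes 3.29, 1.70 and 3.87), and Cd14 and Tlr4 rose at 1 month and at 3 months. Of 8 granulocyte regulators tested, 4 rose at 7 days (Runx1, Spi1, Irf8 and Cebpa), at 1 month and at 3 months; Klf4 and Myb fell at 7 days, and Myb fell at 1 month. Spi1, which encodes PU.1 and is also expressed by microglia, rose by a log2 change of 2.36 ± 0.34 at 7 days (edgeR adjusted p = 0.000194). The genes most like the mean of the 9 over the 11 sorted libraries were 10 with 72 to 385 counts in all (Pearson r of 0.879 to 0.906), led by LOC108167519 and including Spocd1, Mfsd4b3 and Fbxo24.

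In cultured astrocytes the 9 genes were close to the counting limit. Their counts summed to 0 and 28 in the Zeb2os knockdown libraries against 0 and 19 in their controls, and to 5 and 3 in the Zeb2 knockdown libraries against 12 and 1 in their controls. S100a8 held 22 of the 28 counts and 8 of the 19. No comparison was made on these counts.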

How the data were processed

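The authors deposited raw read counts, as whole numbers for each gene, in 4 tables. The submitters' processing notes name build mm10, Cufflinks 2.2.1, TopHat2 2.1.0, FastQC and DESeq2. Which program and annotation gave the counts, and with which strand setting, is not given in the sources used here. Per the labels' protocols the library kit was a directional one. The 9 genes and all gene lists were chosen with earlier results of these data known. Counts were tested in edgeR 4.0.16 (R 4.3.3) with TMM scaling, filterByExpr (minimum count 10), a quasi-likelihood fit over the 11 sorted or 6 tissue libraries and Benjamini-Hochberg adjustment over all genes tested, called below 0.05. The method was tested on simulated counts with known folds added. They held no library set apart from its group, so they do not bear on calls that rest on single libraries. Alternatives were DESeq2 1.42.0, other scaling, no filter, a replicate block, 2 groups alone and each library left out. Depth is given with the results, and precision is limited by few libraries. Nothing in the labels beyond pooling of 3 mice says how replicates were drawn, so p-values measure the spread between these libraries. No 2 libraries of the same tissue or sorted group agreed within sampling noise. Positions and exon lengths came from GENCODE M21 and promoters from RefSeq. Beside the 9 genes, the text names up to 4 called genes with the largest change per list and comparison, and the 5 (tissue) and 10 (sorted) genes most correlated with the set, of which 1 is not reported here. The 2 Zeb2os and Zeb2 culture tables are given as counts without a test.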

Additional observations from a re-analysis of the deposited data

How the results depend on the processing

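In tissue, all 9 log2 changes stayed positive under every alternative run (1.77 to 5.30), but the number called higher, 8 of 9, did not hold: it was 0 to 9 with 1 library left out, 0 with the replicate block (log2 changes 2.86 to 4.04, adjusted p of 0.0706 to 0.156), and 2 with DESeq2, which gave an adjusted p for Elane and Mpo alone and none for the other 7. With DESeq2's outlier filter off, an alternative added after the data were seen, all 9 were called, as they were without the filter on low counts. Over all genes, 2889 calls in tissue became 506 with the block and 305 to 5980 with 1 library left out. The block shifted counts of calls although same-numbered libraries did not deviate together (correlations of -0.27 to -0.01 in tissue and -0.04 to 0.06 in sorted cells). In sorted cells at 7 days against sham, the 2 calls became 0 with DESeq2, 0 with its outlier filter off, 0 with the 2 groups alone and 0 to 2 with 1 library left out. At 1 month against sham, the 3 calls became 6 without the filter, 1 with the replicate block, 0 with the 2 groups alone and 0 to 3 with 1 library left out. At 3 months against sham, 0 calls became 1 without the filter and 0 to 1 with 1 library left out. Between 1 month and 7 days, 0 calls became 2 without the filter and 2 with those groups alone, and remained 0 with 1 library left out. Between 3 and 1 months, 0 calls became 3 without the filter and stayed 0 with 1 library left out. With 1 library left out, the difference in the log2 ratio of Elane and Mpo to S100a8 and S100a9 ranged from 0.00802 to 0.613 in tissue, and against sham from -9.66 to -2.55 at 7 days, from -6.30 to 0.813 at 1 month and from -8.39 to -1.27 at 3 months. The sign at 1 month turned without sham replicate 3, where the ratio of that library (8.64) is no longer in the sham mean. With 1 library left out, an alternative for the bounds added after the data were seen, the lowest fold by which Elane lay under sham ranged at 7 days from 14.3 to 202, at 1 month from 15.8 to 224 and at 3 months from 7.39 to 105, and that of Mpo from 8.91 to 138 at 7 days and 9.88 to 153 at 1 month, the lower end being without sham replicate 3 each time. The cause of the other changes was not tested. With Elane, Mpo and other genes at a handful of counts in sorted libraries, depth limits what could be detected there.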
